A study of Mus musculus with 11 samples.

Results

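AP-1 is a family of transcription factors that bind DNA as dimers of basic leucine zipper (bZIP) proteins, and its mRNAs were followed here in precursor exhausted CD8+ T cells of mouse tumors with and without blockade of LAG-3, an inhibitory receptor of T cells. The 10 genes were chosen by name from the 32469 gene symbols counted. They were the FOS family (Fos, Fosb, Fosl1 and Fosl2), the JUN family (Jun, Junb and Jund) and 3 further bZIP genes (Atf3, Batf3 and Maff). The library of each of 11 mice was made from sorted CD8+ PD-1+ Ly108+ TIM-3- CD62L- cells of flank tumors of Lewis lung carcinoma (LLC), a mouse lung cancer cell line of C57BL/6 origin placed in both flanks. All mice were wild-type C57BL/6 females aged 8 weeks. Of these, 5 were untreated (replicates 1 to 5) and 6 received aLAG3, the anti-LAG-3 antibody clone C9B7W, at 200 µg per mouse into the peritoneum on days 14 and 16 (replicates 6 to 11). The labels name no control antibody for the untreated mice. By the study's description of this experiment, the sequenced cells of both groups came from tumors removed on day 18, after both doses, whereas the text of the series gives days 14 and 21 for tumor removal. All tumors were digested with collagenase before sorting.

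JUN proteins pair with each other or with FOS proteins, whereas FOS proteins need a JUN partner to bind DNA. In T cells the dimers act downstream of the antigen receptor and MAP kinases, where they bind together with NFAT at cytokine genes, and Fos, Fosb, Jun, Junb and Atf3 are immediate early genes whose mRNAs appear quickly and decay quickly after a stimulus. JUNB and JUND can hold back some targets of JUN, BATF3 pairs with JUN proteins and IRF factors, ATF3 often acts as a repressor, and MAFF is a small MAF protein that has no activation domain of its own.

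Promoters are shown for Fos, Fosb and Jun, whose mRNAs were highest in the same library, and for Junb, the most abundant member, which was highest in another. Each sequence runs 5′ to 3′ on the strand of the gene, from 250 bases before to 50 bases after the RefSeq start (GRCm38.p6), at chr12:85473640-85473939 (+) for Fos, chr7:19309996-19310295 (-) for Fosb, chr4:95052173-95052472 (-) for Jun and chr8:84978699-84978998 (-) for Junb. Capitals mark TGACG, the core of the cAMP response element (CRE) that CREB and ATF proteins bind.
Fos: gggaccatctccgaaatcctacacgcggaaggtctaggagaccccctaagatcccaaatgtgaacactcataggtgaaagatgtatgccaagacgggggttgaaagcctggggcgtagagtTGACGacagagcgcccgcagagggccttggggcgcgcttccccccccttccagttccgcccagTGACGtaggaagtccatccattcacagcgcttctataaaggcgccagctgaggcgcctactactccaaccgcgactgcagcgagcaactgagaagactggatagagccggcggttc
Fosb: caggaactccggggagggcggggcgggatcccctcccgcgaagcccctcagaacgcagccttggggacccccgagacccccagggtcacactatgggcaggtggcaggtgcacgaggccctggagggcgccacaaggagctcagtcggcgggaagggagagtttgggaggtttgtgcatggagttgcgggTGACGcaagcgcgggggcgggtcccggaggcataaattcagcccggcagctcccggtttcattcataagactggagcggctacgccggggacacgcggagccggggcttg
Jun: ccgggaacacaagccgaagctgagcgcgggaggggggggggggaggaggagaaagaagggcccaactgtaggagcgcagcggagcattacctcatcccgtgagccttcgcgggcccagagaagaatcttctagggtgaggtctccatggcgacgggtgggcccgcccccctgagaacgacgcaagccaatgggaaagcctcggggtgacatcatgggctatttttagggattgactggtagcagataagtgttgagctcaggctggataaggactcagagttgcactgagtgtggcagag
Junb: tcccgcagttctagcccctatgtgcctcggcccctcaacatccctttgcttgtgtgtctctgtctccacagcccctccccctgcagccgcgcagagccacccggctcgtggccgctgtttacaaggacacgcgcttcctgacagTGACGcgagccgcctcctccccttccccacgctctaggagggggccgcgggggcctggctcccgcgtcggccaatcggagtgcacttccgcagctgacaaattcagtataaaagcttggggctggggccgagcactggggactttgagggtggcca
The core stood at -129 and -66 from the start of Fos, at -60 of Fosb and at -106 of Junb, and these letters were not in the Jun window. It was searched on both strands and lies in 20.8% of 32817 RefSeq promoters of the same length. The whole CRE (TGACGTCA, which holds the core on both strands) lies in 1.79% of promoters and was found in a Maff promoter, at -29, and in no other window of the 9 members with a RefSeq promoter (all but Fosl1). The AP-1 site itself (TGANTCA, in 7.81% of promoters) and the CArG box of serum response factor (in 1.63%) were not found in the windows of these 9 genes. The Jun window holds TGACATCA, the whole CRE with A in place of a G, which none of these patterns matches. These matches are a description of the letters, and no binding was measured. Sites outside the windows were not searched. By the gene coordinates given below, the Jund window (chr8:70697489-70697788) ends before the gene, and the Atf3 window (chr1:191183284-191183583) lies inside it.

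Junb was by far the most abundant AP-1 mRNA in these cells. Per kilobase of exon, its level was 800 CPM per kb (CPM is the count scaled for library depth; mean over 11 libraries, SD 85.1), followed by Jund with 92.8 (SD 16.1), Fos with 76.5 (SD 22.4), Fosb with 57.1 (SD 11.6), Jun with 53.5 (SD 14.2), Fosl2 with 15.1 (SD 3.33), Atf3 with 11.1 (SD 5.41) and Maff with 7.29 (SD 2.62). The Junb level stood at the 98.0th percentile of the 6824 genes with a length that passed the filter on low counts, and that of Maff at the 32.6th. Between neighbours in this order, the ranges over all libraries did not overlap for Junb above Jund and for Jun above Fosl2. The other neighbours overlapped in range, though Fos lay above Fosb per kb in 11 of 11 libraries. Jund lay above Fos, Fosb above Jun, Fosl2 above Atf3 and Atf3 above Maff in 8 of 11 libraries each. In CPM with no division by length the order of Fos and Fosb turned, with Fosb above Fos in 11 of 11 libraries. Fosb was then second to Junb, with means of 324 (untreated) and 384 CPM (anti-LAG-3), against 163 and 194 CPM for Fos. Whether the reads cover whole transcripts or one end is not stated, and an order by length assumes even cover. In the study's methods, the barcode of a library joins the template-switch end of the cDNA before fragmentation. Reads that carry the barcode would come from that end, where levels with no division by length apply.

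**Figure D1:**
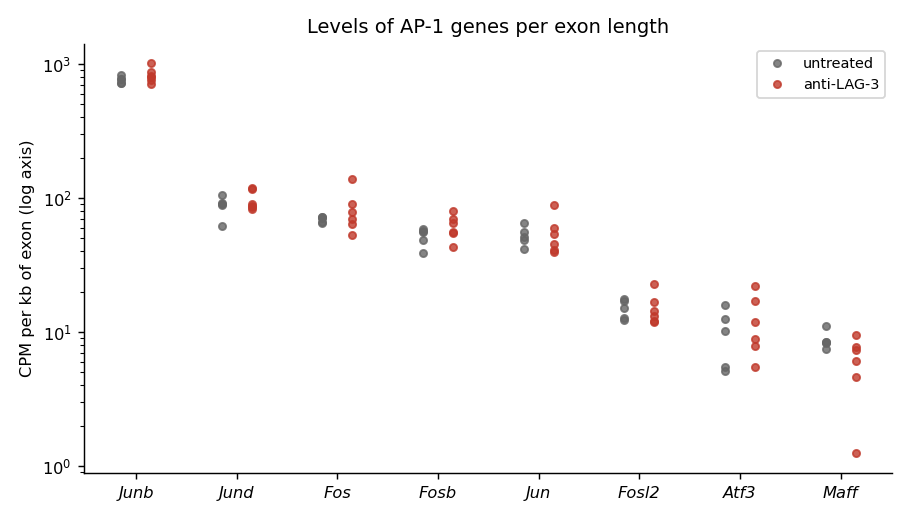
Levels of the 8 AP-1 genes that passed the filter, in CPM per kb of exon on a log axis, with a point for each untreated (grey, n = 5) and anti-LAG-3 (red, n = 6) library. Junb lies between 715 and 1012, above every value of the other genes, and the low point of Maff at 1.24 is anti-LAG-3 replicate 10.

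The other members were near the limit of detection. Fosl1, which encodes FRA-1, had 0 to 2 counts per library and none in 7 of 11 libraries, 2 counts in all in the untreated group and 4 in the anti-LAG-3 group. Batf3 had 0 to 3 counts, none in 5 libraries, and 6 counts in all in each group. No library exceeded 3 counts for either gene, a floor that equals 1.57 CPM in the deepest and 9.64 CPM in the shallowest library. A difference between the groups was therefore not detectable at this depth for these 2 genes. Part of the Fosl1 transcripts (52.6% of their 50-base stretches) is also transcript sequence of Ccdc85b on the other strand, and 48.3% of those of Jund are shared with the antisense gene Gm11175. Whether the counting used strand is not stated, so the counts of Fosl1 and Jund are uncertain, with 0 to 9 counts per library for Gm11175 and 11 to 69 for Ccdc85b. The shared stretches made up 5.83% of Jun (with Junos, 0 to 1 counts) and 5.77% of Junb (with Prdx2, 55 to 280 counts), and there were none in the other members.

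Whether LAG-3 blockade changed these mRNAs was asked by a comparison of the 6 anti-LAG-3 with the 5 untreated mice. No AP-1 gene passed the test. Of the 8 genes tested, 0 had an adjusted p under 0.05 by the quasi-likelihood test of edgeR, adjusted by Benjamini-Hochberg over 6949 genes, where the share of all genes was 0%, and 0 had an unadjusted p under 0.05, where it was 3.73% (259 genes, with 163 by DESeq2). Without the filter on low counts, Fos, Fosb and Atf3 had an unadjusted p of 0.0114, 0.0162 and 0.0392, all higher, with an adjusted p of 0.722. In that fit 4.56% of 24024 genes had an unadjusted p under 0.05, and 2.48% also were higher. The fitted log2 fold change was above 0 for 6 and below 0 for 2 of the 8, with a median of 0.12 against 0.0045 over all genes tested. In bulk samples, more cells that express a gene and more RNA per cell cannot be told apart. CPM were scaled by TMM, but those of marker genes and the sums over marker and heat shock genes by total counts. The exact permutation test compares mean log2 CPM, with each library weighted equally, and replicate numbers are those of the labels.

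Fos, on chr12:85473890-85477273, is the classic partner of JUN. Its levels in the untreated mice were 156, 169, 153, 171 and 166 CPM (replicates 1 to 5). In the anti-LAG-3 mice they were 125, 214, 164, 324, 186 and 151 CPM (replicates 6 to 11). The untreated libraries lay close together, and the anti-LAG-3 libraries spread to both sides of them, with 3 above and 2 below all untreated values. The mean was 163 ± 7.81 CPM (n = 5, SD) in untreated and 194 ± 70.7 CPM (n = 6, SD) in anti-LAG-3 mice, and the log2 fold change was 0.29 (SE 0.17, unadjusted p = 0.0907, adjusted p = 0.999 by edgeR). The mean log2 CPM differed by 0.18, and the exact two-sided permutation test over mice gave p = 0.494, where the smallest possible is 0.00216. The SD among untreated mice was 0.456 times the SD that counting alone gives, and that among anti-LAG-3 mice 3.84 times. Anti-LAG-3 replicate 9 lay farthest from the other libraries. Of the 8 genes tested, all but Jund (1.66 and 1.59) had a higher ratio in anti-LAG-3 mice, for example Junb with 1.73 and 4.09. These differences in spread were not tested. The fold change was 0.067 without anti-LAG-3 replicate 9, the highest library, and 0.41 (unadjusted p = 0.0117, adjusted p = 1.00) without replicate 6, the lowest.

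Fosb, on chr7:19302696-19310051, encodes a FOS protein and a truncated form by alternative splicing. The untreated mice had 350, 244, 355, 302 and 368 CPM and the anti-LAG-3 mice 271, 434, 409, 498, 340 and 350 CPM, in replicate order. The highest 3 libraries were replicates 9, 7 and 8 of the anti-LAG-3 group, and the others lay within the untreated range. The mean was 324 ± 51.1 CPM (n = 5, SD) against 384 ± 79.8 CPM (n = 6, SD), a log2 fold change of 0.23 (SE 0.12, unadjusted p = 0.0742, adjusted p = 0.999 in the same test; mean log2 CPM difference 0.23, exact permutation test, p = 0.190). Without anti-LAG-3 replicate 6 it was 0.32 (unadjusted p = 0.00732), and without replicate 9 it was 0.13. Fosl2, on chr5:32135801-32157842, encodes FRA-2. It had 170, 122, 145, 166 and 120 CPM in untreated mice and 116, 139, 162, 117, 222 and 127 CPM in anti-LAG-3 mice. Only anti-LAG-3 replicate 10 exceeded the untreated range, and replicates 6 and 9 fell below it. The means were 145 ± 23.6 CPM (n = 5, SD) and 147 ± 40.3 CPM (n = 6, SD), and the fitted log2 fold change, which weights libraries by depth, was -0.062 (SE 0.14, adjusted p = 0.999), while the mean log2 CPM difference was 0.00042 (exact permutation test, p = 1).

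Among the JUN genes, Jun (chr4:95049034-95052222) encodes the strongest activator. Its levels were 177, 207, 162, 132 and 154 CPM in untreated mice and 144, 190, 173, 282, 125 and 130 CPM in anti-LAG-3 mice. Apart from anti-LAG-3 replicate 9, the highest, the groups covered a similar range. The means were 166 ± 27.9 CPM (n = 5, SD) and 174 ± 58.6 CPM (n = 6, SD), a log2 fold change of 0.12 (SE 0.16, unadjusted p = 0.458; mean log2 CPM difference 0.023, exact permutation test, p = 0.929) that turned to -0.078 without replicate 9. Junb (chr8:84974484-84978718) had 1894, 1775, 1787, 1671 and 1655 CPM in untreated mice and 1646, 2003, 1880, 1763, 2328 and 1856 CPM in anti-LAG-3 mice. Replicates 10 and 7 of the anti-LAG-3 group were the highest and replicate 6 the lowest of all 11, so the groups overlapped. The means of 1756 ± 97.3 CPM (n = 5, SD) and 1913 ± 236 CPM (n = 6, SD) gave a log2 fold change of 0.12 (SE 0.071, unadjusted p = 0.110; mean log2 CPM difference 0.12, exact permutation test, p = 0.216). The log2 fold change was 0.056 without replicate 10 and 0.16 without replicate 6 (unadjusted p = 0.0340, adjusted p = 0.9999 by edgeR). Jund (chr8:70698949-70700616), which is usually expressed without a stimulus, had 153, 147, 176, 102 and 150 CPM in untreated mice and 146, 151, 193, 139, 199 and 144 CPM in anti-LAG-3 mice. Replicates 8 and 10 of the anti-LAG-3 group were the highest, and untreated replicate 4 was the lowest. The means were 146 ± 26.9 CPM (n = 5, SD) and 162 ± 26.7 CPM (n = 6, SD), a log2 fold change of 0.082 (SE 0.13, unadjusted p = 0.525; mean log2 CPM difference 0.16, exact permutation test, p = 0.353). Without untreated replicate 4 the log2 fold change was -0.0017 and the mean log2 CPM difference 0.038.

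**Figure D2:**
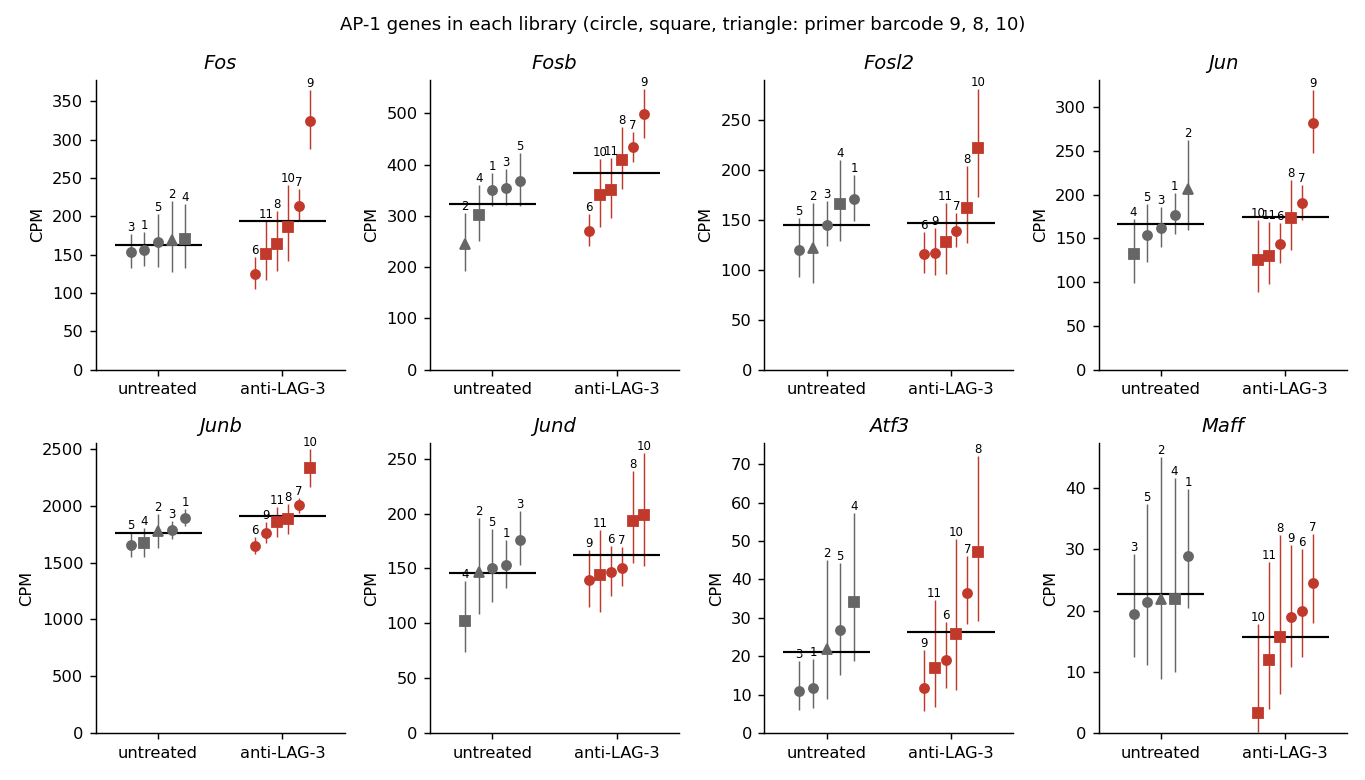
Levels (CPM) of 8 AP-1 genes in each library, with 95% exact Poisson intervals that cover counting error only, the replicate number above each point, and the group mean as a black line. Circles, squares and triangles are primer barcodes 9, 8 and 10, and each panel has its own axis from 0. Anti-LAG-3 replicate 9 is highest for Fos, Fosb and Jun (324, 498 and 282 CPM) and replicate 10 for Junb, Fosl2 and Jund (2328, 222 and 199 CPM).

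The other bZIP genes were low. Atf3 (chr1:191170296-191218039) had 11.7, 21.9, 11.0, 34.1 and 26.8 CPM in untreated mice and 19.0, 36.5, 47.2, 11.8, 25.7 and 16.8 CPM in anti-LAG-3 mice, from 7 to 70 counts. Replicates 8 and 7 of the anti-LAG-3 group were the highest, and each group spanned low and high values. The means were 21.1 ± 9.91 CPM (n = 5, SD) and 26.2 ± 13.4 CPM (n = 6, SD). Its log2 fold change of 0.54 (SE 0.34, unadjusted p = 0.120; mean log2 CPM difference 0.26, exact permutation test, p = 0.526) had the largest SE of the 8 genes. Without untreated replicate 4 it was 0.75 (unadjusted p = 0.0388), without anti-LAG-3 replicate 9 it was 0.70 (unadjusted p = 0.0392), and without anti-LAG-3 replicate 7 it was 0.29. Maff (chr15:79346621-79359076) had 28.9, 21.9, 19.5, 21.9 and 21.4 CPM in untreated mice and 19.9, 24.5, 15.7, 18.9, 3.21 and 12.0 CPM in anti-LAG-3 mice. Of the anti-LAG-3 libraries, 4 lay below all untreated values, and the lowest, replicate 10, rested on 1 count. Of these 4 libraries, 3 carried primer barcode 8 (replicates 8, 10 and 11). The means were 22.7 ± 3.59 CPM (n = 5, SD) and 15.7 ± 7.42 CPM (n = 6, SD), with a log2 fold change of -0.33 (SE 0.26, unadjusted p = 0.225; mean log2 CPM difference -0.61, exact permutation test, p = 0.0952). It was -0.18 without untreated replicate 1 and -0.54 without anti-LAG-3 replicate 7. The groups overlapped for all 10 genes, and over all genes tested they did not overlap for 0.475%.

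Library depth followed the primer barcode. The 6 libraries with barcode 9 (3 of each group) had a median of 1141450 total counts, the 4 with barcode 8 (1 untreated, 3 anti-LAG-3) 411796, and the 1 with barcode 10, untreated, 317449. Within barcode 9, log2 CPM of anti-LAG-3 minus untreated was 0.37 for Fos (exact permutation test, p = 0.4), 0.12 for Fosb (exact p = 0.7), 0.27 for Jun (exact p = 0.5), 0.018 for Junb (exact p = 1), -0.13 for Jund (exact p = 0.2) and -0.21 for Fosl2 (exact p = 0.2). It was 0.36 for Atf3 (exact p = 0.5) and -0.12 for Maff (exact p = 0.6), against -0.61 for Maff over all libraries. With 3 mice against 3 the test cannot go below 0.1. In the fit, Fos had a log2 fold change of 0.46 (unadjusted p = 0.0462, adjusted p = 0.986) within barcode 9 and 0.35 (SE 0.18) with barcode as a covariate, which leaves the barcode 10 library without weight. Jund was -0.14 within barcode 9, the opposite direction to the fit of all libraries. Barcodes 8 and 10 hold too few mice of a group for values of their own.

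**Figure D3:**
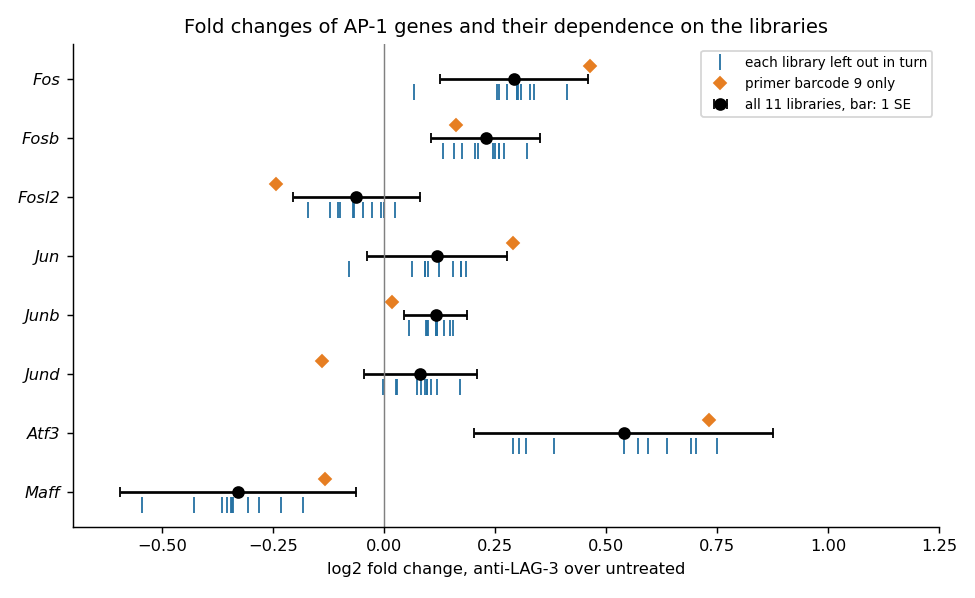
Fitted log2 fold changes of 8 AP-1 genes, anti-LAG-3 over untreated, from all 11 libraries (black points, bars 1 SE), with each library left out in turn (blue ticks) and within primer barcode 9 (orange diamonds). Fos ranges from 0.067 to 0.41 with a library left out, and Jun, Jund and Fosl2 fall on both sides of 0.

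The members were compared as families by summing CPM per kb. The FOS family summed to 136 ± 7.39 (n = 5, SD) in untreated and 159 ± 41.4 (n = 6, SD) in anti-LAG-3 mice, and the JUN family to 903 ± 58.1 and 983 ± 109. Per length, JUN mRNA exceeded FOS mRNA 6.64-fold ± 0.626 (n = 5, SD) and 6.44-fold ± 1.36 (n = 6, SD). Sums of CPM with no division by length, which applies if each transcript gives reads from an end, had a ratio of 3.30 ± 0.405 and 3.18 ± 0.515. The lowest ratio per length, 4.07, was in anti-LAG-3 replicate 9. Junb alone made up 72.1% ± 1.11 (n = 5, SD) and 71.6% ± 3.90 (n = 6, SD) of the sum of all members, from 64.9% in anti-LAG-3 replicate 9 to 75.5% in replicate 10, and 64.0% and 63.5% with no division by length. The sums and shares overlapped between the groups and were not tested.

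Of the 8 genes, 6 had their highest level in 1 of 2 libraries. Fos, Fosb and Jun were highest together in anti-LAG-3 replicate 9, and Junb, Fosl2 and Jund in replicate 10, while Atf3 was highest in anti-LAG-3 replicate 8 and Maff in untreated replicate 1. After removal of the group means, the Pearson correlation of log2 CPM over the 11 libraries was 0.80 for Fosl2 and Junb (permutation test, p = 0.00352, adjusted over 28 pairs 0.0986; Spearman's rho 0.78, p = 0.00681), 0.73 for Fos and Jun (permutation p = 0.0160, adjusted 0.212; rho 0.51, p = 0.113) and 0.67 for Fos and Fosb (permutation p = 0.0227, adjusted 0.212; rho 0.55, p = 0.0840). None of the 28 pairs passed after adjustment, and 4 had an unadjusted p under 0.05. The fourth was Fosl2 and Maff with r = -0.64 (permutation p = 0.0428, adjusted 0.299; rho -0.36, p = 0.274), which was 0.77 within barcode 9 and -0.18 without the 2 libraries farthest from the median of Fosl2. Without the 2 farthest libraries r fell to 0.43 for Fosl2 and Junb, 0.35 for Fos and Jun and 0.049 for Fos and Fosb. Within the 6 libraries of barcode 9 they were 0.88, 0.95 and 0.97. Fosb and Jun had r = 0.48 (permutation p = 0.139, adjusted 0.487; rho 0.51, p = 0.114), and 0.93 without the 2 farthest libraries. Over all pairs the median r was 0.047, with 15 of 28 above 0, and the r of Fos with Junb was 0.10 (permutation p = 0.749, adjusted 0.942).

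**Figure D4:**
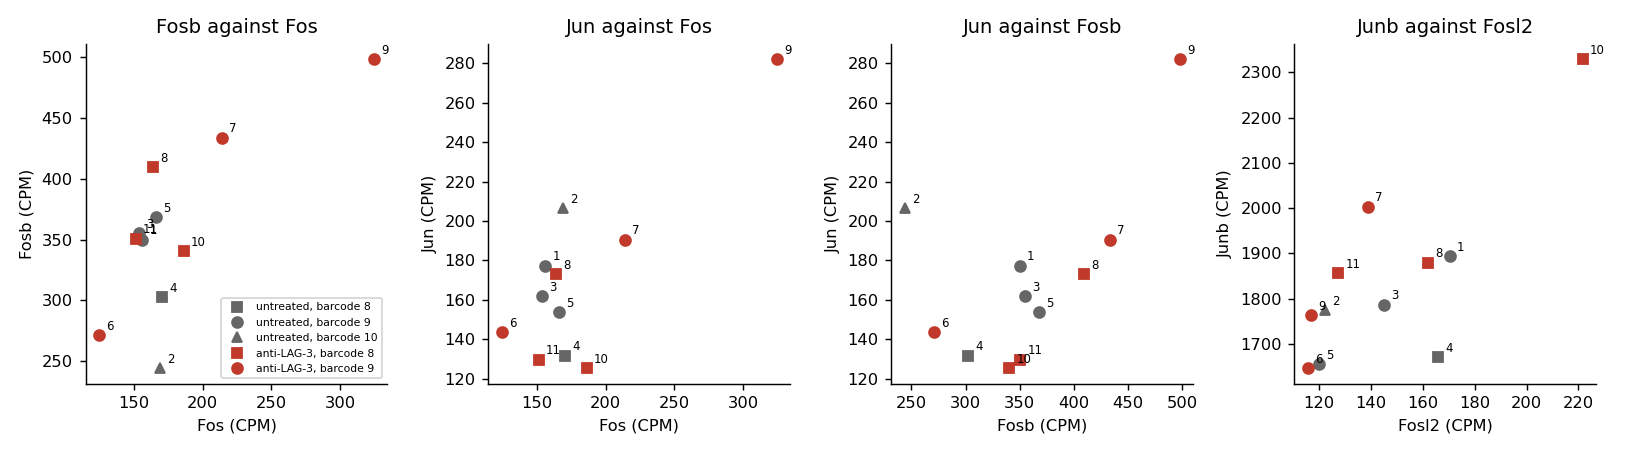
Levels (CPM) of 4 pairs of AP-1 genes, with a point for each library, numbered by replicate, coloured by group (untreated grey, anti-LAG-3 red) and shaped by primer barcode. Anti-LAG-3 replicate 9 lies apart at the upper right for Fos with Fosb and Jun, and replicate 10 for Fosl2 with Junb.

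Genes among the most like Fos between mice, by Pearson correlation over 11 libraries with the group means removed, were Eif4a2 (a translation initiation factor, r = 0.88) and Cd69 (an early activation marker, 0.85). Those most like Jun were Gm8520 (0.89), Gtpbp2 (0.85) and Gm19757 (0.85), and those most like Junb were Aaas (a nuclear pore protein, 0.95), Bhlhe40 (a transcription factor of activated T cells, 0.92) and Cd74 (the invariant chain of MHC class II, 0.91). They are among the highest of 6949 genes and are given as a description, and the libraries share depth with barcode.

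The spread between mice beyond counting, the biological coefficient of variation, was 0.293 for Atf3, 0.178 for Fos, 0.167 for Jun, 0.156 for Maff, 0.139 for Fosb, 0.135 for Fosl2, 0.114 for Jund and 0.0917 for Junb, against a median of 0.120 over all genes tested. Thus 6 of the 8 genes lay above the median, up to the 99.5th percentile for Atf3. Without the filter on low counts, 2 of the members lay above the median of that fit.

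Genes that work with AP-1 were described from lists chosen by known function, with earlier results of these data known. No gene of them passed after adjustment. Of 22 bZIP partners, 13 were tested, 2 were higher and 11 lower, with a median log2 fold change of -0.083. At an unadjusted p under 0.05, Atf4, the factor of the integrated stress response, was 182 ± 29.3 CPM (n = 5, SD) and 217 ± 30.8 CPM (n = 6, SD), with a log2 fold change of 0.28 (SE 0.12, unadjusted p = 0.0255), and Atf7 had -0.59 (SE 0.25, unadjusted p = 0.0262). Crem, a CRE modulator, had -0.27 (unadjusted p = 0.0889). Of 29 genes of the MAP kinase pathway, 20 were tested, 12 higher and 8 lower, with a median of 0.056. Map3k1, a kinase upstream of JNK, was 41.5 ± 13.4 CPM (n = 5, SD) and 25.9 ± 12.4 CPM (n = 6, SD), with -0.68 (SE 0.26, unadjusted p = 0.0140), Mapk14 (p38α) had 0.29 (unadjusted p = 0.182) and Elk3 -0.18 (unadjusted p = 0.232). Adjusted p was 0.999 for each of these genes.

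Of 33 other immediate early genes, 31 were tested, 21 higher and 10 lower, with a median of 0.073. An unadjusted p under 0.05 was reached by 5, all higher, where 1.74% of all genes were higher at that threshold. Because the list was chosen with earlier results known, this count is a description and no test of the list. Egr1, a zinc finger factor induced beside Fos, was 39.2 ± 13.2 CPM (n = 5, SD) and 60.2 ± 16.6 CPM (n = 6, SD), with a log2 fold change of 0.57 (SE 0.21, unadjusted p = 0.0109, adjusted p = 0.999). Myc had 0.51 (unadjusted p = 0.0137) and Nfkbia, the NF-κB inhibitor, 0.22 (unadjusted p = 0.0140). The other two, Klf4 with 0.64 (unadjusted p = 0.0353) and Klf6 with 0.19 (unadjusted p = 0.0406), were named after their values were seen. Of 26 genes that AP-1 is known to regulate in T cells, 21 were tested, 15 higher and 6 lower, with a median of 0.018. Lmna (lamin A/C) had 0.80 (SE 0.29, unadjusted p = 0.00970), Vim (vimentin) 0.27 (unadjusted p = 0.0187) and S100a6 -0.24 (unadjusted p = 0.0435), each with an adjusted p of 0.999. Of 16 heat shock genes, 12 were tested, 8 higher and 4 lower, with a median of 0.046 and the smallest p for Hspe1 (-0.13, unadjusted p = 0.195), Hsp90ab1 (0.079, unadjusted p = 0.211) and Hsph1 (0.17, unadjusted p = 0.275).

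**Figure D5:**
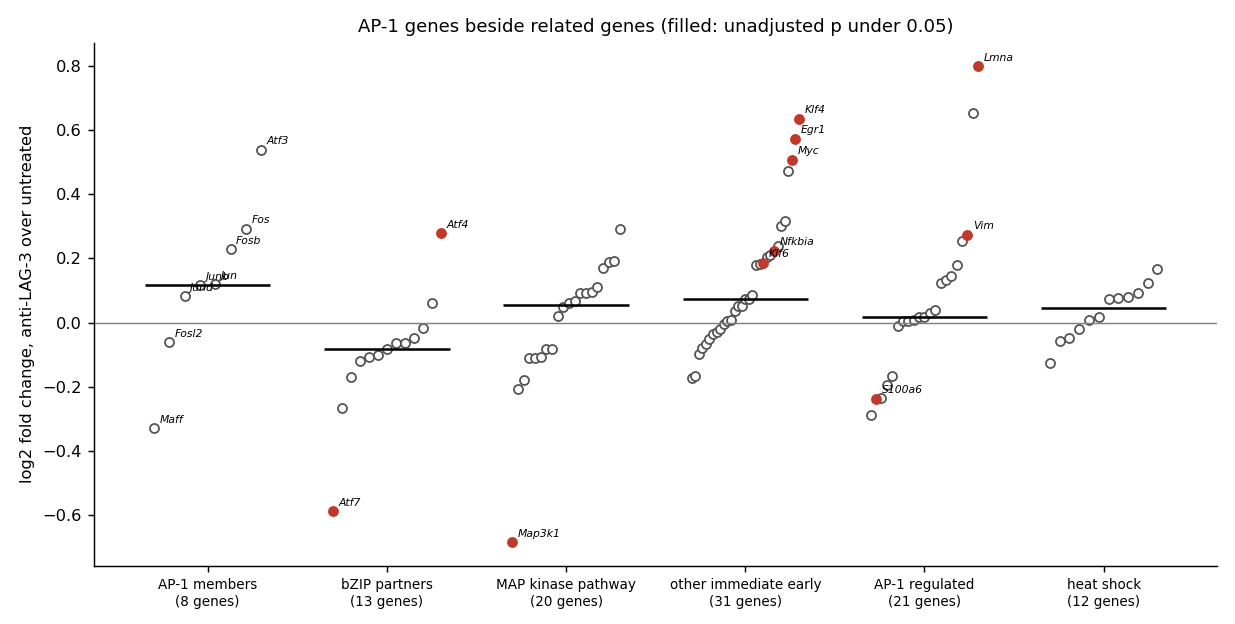
Fitted log2 fold changes, anti-LAG-3 over untreated, of the 8 AP-1 genes tested and of 5 lists of related genes, with a black line at each median and filled points for an unadjusted p under 0.05. The median is 0.12 for the AP-1 genes and -0.083 for the bZIP partners, and no AP-1 gene is filled.

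The label of the cells was checked against marker genes. All 8 CD8 T cell genes were found in every library, at summed levels of 6659 to 7003 CPM in untreated and 6653 to 7209 CPM in anti-LAG-3 mice. Cd4 and Foxp3 had 0 to 1 counts, Klra8, S100a8 and S100a9 were at 0 in all 11 libraries, and the 7 B cell genes summed to 7.36 to 19.4 and 4.81 to 28.7 CPM. The 3 NK genes reached 3.19 CPM and the 9 stromal or tumor genes 140 to 217 and 155 to 214 CPM, most of it Pecam1, which T cells also express. The 14 myeloid genes, 12 of which were seen, summed to 331 to 435 CPM and 286 to 622 CPM, most of it Cst3. The highest sums were in anti-LAG-3 replicates 10 (622 CPM, with Cd68 at 47.8 and Lyz2 at 28.7) and 7 (473 CPM), which were also the highest libraries for Junb, and replicate 10 was the highest for Fosl2 and Jund. Without these 2 libraries, an alternative chosen after the data were seen, the log2 fold change was 0.016 for Junb, -0.21 for Fosl2, 0.028 for Jund, 0.26 for Atf3, 0.27 for Fos, 0.20 for Fosb, 0.16 for Jun and -0.41 for Maff, with 0 AP-1 genes called. The gating the study shows for tumor T cells left out cells that stained for CD11b, a myeloid marker. The part of myeloid RNA in the levels of Junb, Fosl2 and Jund was not tested. The heat shock genes summed to 6902 to 7259 CPM in untreated and 6095 to 7792 CPM in anti-LAG-3 mice, with the lowest sum in replicate 10 and the highest in replicate 9.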

How the data were processed

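Polyadenylated RNA of sorted cells was sequenced by the authors, with a library per mouse. Reads were trimmed with Cutadapt and mapped to GRCm38 reference RNA with Bowtie2 (versions 4.1 and 2.4.5 per the submitters' processing notes), and the authors deposited raw counts per gene symbol with no normalization. Strand and the treatment of reads that map to several genes are not given in the sources used here. Total counts ran from 313524 to 1901374 per library, which limits low genes, and intervals cover counting error only. Mice were taken as replicates by their labels.

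Genes passed filterByExpr (17.7 CPM, which is 10 counts at median depth, in at least 5 libraries, and 15 counts in all), were scaled by TMM and tested with edgeR 4.0.16 (quasi-likelihood, Benjamini-Hochberg, threshold 0.05) in R 4.3.3. Single genes were compared on log2 CPM (prior count 2) by exact two-sided permutation over mice in scipy 1.17.1, and pairs by 1e+05 permutations. CPM of members use total counts times the TMM factor. Of the 32469 symbols, 8445 had no read, and 31212 (96.1%) were found in GENCODE M21, which gave GRCm38 coordinates and exon lengths. Promoters are from RefSeq. DESeq2 1.42.0, the edgeR likelihood ratio test, other scalings and filters, covariates and leaving out each library were alternatives. The named genes are all 10 members, the 3 genes of each list with the smallest p, the 3 most correlated with each of Fos, Jun and Junb, and the markers, of which 2 genes are not reported here. Members and lists were chosen with earlier results of these data known.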

Additional observations from a re-analysis of the deposited data

Results flagged for a closer look

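Of 18 sets of values, the levels of a gene in the mice of a group, 1 held a library far from the others, where chance gives about 1 in 20, or 0.9. Maff in untreated replicate 1 was 28.9 CPM, and the other untreated libraries had 19.5 to 21.9 CPM.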

How the results depend on the processing

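No AP-1 gene had an adjusted p under 0.05 under any of the 22 alternatives, and their median log2 fold change lay between 0.090 and 0.25, or between 0.082 and 0.17 with a library left out. Without the filter on low counts, 3 genes of the whole table were called (5830405F06Rik, Ccl1 and Plac8), and 2 of the members had a spread above the median, which was 0.311 over all genes there and 0.120 with the filter. With a library left out, 0 to 2 genes were called (C2cd4b and Plac8, without anti-LAG-3 replicate 7). The number of members past the exact permutation test was 0 to 1 with a library left out. The 1 was Maff without anti-LAG-3 replicate 7 (a log2 CPM difference of -0.75, exact p = 0.0159), with a range of -0.75 to -0.31. Without the 2 farthest libraries 1 pair of members passed. The direction turned for Jund within barcode 9 (-0.14), and for the mean log2 CPM difference of Fosl2 with total counts (-0.0052). With a library left out, fitted log2 fold changes ran from -0.17 to 0.024 for Fosl2, -0.078 to 0.18 for Jun and -0.0017 to 0.17 for Jund, and mean log2 CPM differences from -0.12 to 0.062 for Fosl2 and -0.13 to 0.10 for Jun. No paired analysis was possible because the groups share no replicate number. A number in the library titles is shared between groups by untreated replicates 2 and 3 and anti-LAG-3 replicate 10 alone. With it as a covariate, a fit added after the data were seen, the group difference rests on these 3 libraries. It called 16 genes, 2 of them in the lists (Nfkbia and Csf2), and gave 0.69 for Fosl2, -0.49 for Jun, 0.39 for Junb and -2.59 for Maff, with adjusted p of 0.23 or more for every AP-1 gene.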
